A study of Mus musculus with 6 samples.

Results

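Transcripts of 41 genes that drive DNA replication and cell division were followed in tumor-associated macrophages (TAMs), picked by gene symbol from the 39179 genes of the count table. All 41 symbols were found, each on a single row. They comprise 11 replication genes (the clamp Pcna, the 6 subunits of the MCM helicase and 4 enzymes of nucleotide supply), 26 mitotic genes and 4 others (Cks1b, Cks2, Stmn1 and Hmgb2). TAMs had been sorted from melanomas that grew in C57BL/6 hosts aged 8 weeks, and RNA from 3 Ptgs-competent and 3 Ptgs-deficient tumor samples was sequenced. The tumors came from a Braf V600E-driven melanoma line from mice that lack p16INK4a. In the Ptgs-competent group the injected cells were wild-type for Ptgs1 and Ptgs2, the genes of both cyclooxygenases, and in the Ptgs-deficient group both genes had been disrupted in the injected cells by CRISPR. The hosts, and therefore the macrophages, carried no such deletion in either group. Each sample was a pool of tumors, from which live leukocytes positive for CD45, CD11b and F4/80, negative for NK1.1 and Ly6G and with no or dim Ly6C were sorted. The tumor deletion cannot be checked in macrophage RNA. There, Ptgs1 had a log2 fold change (Ptgs-deficient over Ptgs-competent) of -1.11 and Ptgs2 of -0.998, with edgeR adjusted p = 0.962 for Ptgs1 and 0.9995 for Ptgs2.

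A dividing cell first licenses its replication origins by loading the MCM helicase, then copies its DNA around the sliding clamp PCNA with nucleotides made by ribonucleotide reductase, thymidylate synthase and thymidine kinase. It then condenses its chromosomes, attaches them to the spindle and separates them under the control of Cdk1 with its cyclins and of the anaphase-promoting complex. E2F factors switch on many replication genes at the G1/S boundary, and the DREAM and MuvB-B-Myb complexes act on mitotic genes through the cell cycle homology region (CHR) of their promoters, often beside CCAAT boxes bound by NF-Y. In most tissues mature macrophages are largely quiescent but can divide locally, and in tumors part of the TAM pool is known to proliferate.

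The libraries held 4431184 to 8760679 counts made from 800 pg of RNA each, and they differed strongly within groups. Pearson correlations of log2 TMM-scaled CPM (a gene's counts relative to the library's total) across genes were 0.480 to 0.553 among Ptgs-competent and 0.5999 to 0.720 among Ptgs-deficient libraries. Macrophage markers were counted in every library. The summed level of 12 such markers, led by Lyz2 and C1qa, was 17597, 18681 and 6741 CPM in Ptgs-competent replicates 1, 2 and 3 and 21753 to 25967 CPM in the Ptgs-deficient libraries. Ptgs-competent replicate 3 therefore held the lowest summed macrophage marker level of the 6 libraries. It also held the highest mitochondrial share of counts (6.79%, against 1.72% to 4.11% in the others).

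The promoters of the members are shown first, because the replication and mitotic classes differ in the CHR and E2F letters they hold. Windows of 300 bases, from 250 before to 50 after the transcription start, came from RefSeq for GRCm38.p6 and were found for 34 of the 41 genes. Mcm4, Ccna2, Aurkb, Kif20a, Tpx2, Stmn1 and Smc4 had no window. The 3 windows printed belong to the genes whose levels were lower in every Ptgs-deficient than in every Ptgs-competent library, namely Top2a (chr11:99024140-99024439, minus strand), Cenpe (chr3:135212313-135212612, plus strand) and Mcm6 (chr1:128359656-128359955, minus strand). They are written 5′ to 3′ on the strand of the gene, with capitals for matches on either strand to the CHR (TTTGAA or TTTAAA), the NF-Y box (CCAAT) or an E2F element (TTTCCCGC, TTTGGCGC, TTTGCCGC or TTTCGCGC).
Top2a: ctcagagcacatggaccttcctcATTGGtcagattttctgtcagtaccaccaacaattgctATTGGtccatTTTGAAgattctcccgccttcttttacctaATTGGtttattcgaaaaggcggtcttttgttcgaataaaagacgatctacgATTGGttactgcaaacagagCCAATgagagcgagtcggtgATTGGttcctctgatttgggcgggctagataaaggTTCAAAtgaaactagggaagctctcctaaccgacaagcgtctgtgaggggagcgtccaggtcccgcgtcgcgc
Cenpe: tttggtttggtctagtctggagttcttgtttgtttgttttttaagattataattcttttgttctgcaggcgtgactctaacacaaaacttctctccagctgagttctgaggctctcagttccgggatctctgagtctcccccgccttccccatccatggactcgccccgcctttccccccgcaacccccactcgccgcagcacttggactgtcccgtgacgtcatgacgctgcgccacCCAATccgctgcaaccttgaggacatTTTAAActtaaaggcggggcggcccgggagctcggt
Mcm6: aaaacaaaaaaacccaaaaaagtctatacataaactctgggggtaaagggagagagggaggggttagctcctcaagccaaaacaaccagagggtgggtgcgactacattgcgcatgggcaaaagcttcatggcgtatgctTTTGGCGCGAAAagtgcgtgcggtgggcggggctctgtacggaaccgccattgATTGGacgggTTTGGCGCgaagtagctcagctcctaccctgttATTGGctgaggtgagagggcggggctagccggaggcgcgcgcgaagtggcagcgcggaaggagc

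The Top2a window held 2 CHR and 6 CCAAT matches and no E2F match. One CHR match began 23 bases before the start site. Cenpe had 1 CHR match, 15 bases after the start, and 1 CCAAT match 12 bases before it. Mcm6 had the other makeup, with 3 E2F matches, 2 of which overlap, and 2 CCAAT matches but no CHR letters.

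That contrast held across the 2 classes. CHR letters were present in 19 of 21 mitotic genes with a window (90.5%) and in 4 of 10 replication genes (40%), against 30.6% of 27025 genes of the RefSeq table. In 18 of the 19 mitotic genes a match lay no more than 100 bases before the start or after it. The mitotic genes without CHR letters were Nusap1 and Bub1. CHR and CCAAT letters stood together in 18 of 21 mitotic genes, 3 of 10 replication genes and 12.2% of all genes. E2F letters showed the opposite split, in 4 of 10 replication genes (Mcm3, Mcm5, Mcm6 and Mcm7) and in Cdk1 alone of the 21 mitotic genes, against 2.6% of all genes. CCAAT letters differed less between the classes, in 19 of 21 mitotic genes (90.5%) and 8 of 10 replication genes (80%), beside 41.1% of all genes. The median GC content was 58.3% for mitotic, 57.3% for replication and 52.7% for all windows. A match describes letters only and shows no binding.

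**Figure D1:**
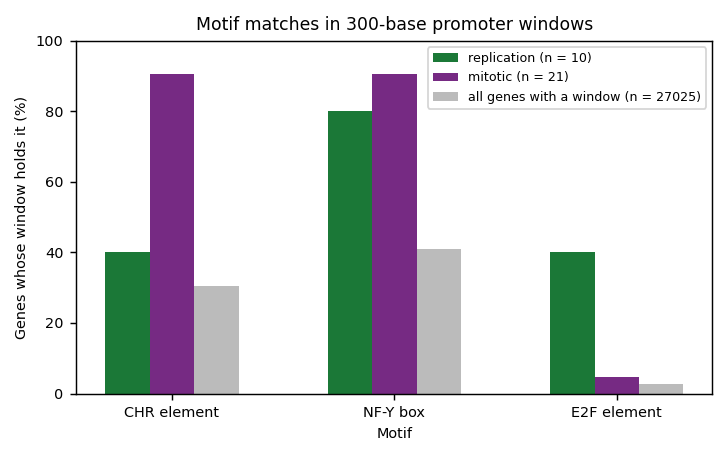
Share of genes (%, vertical axis from 0) whose 300-base promoter window holds the letters of the CHR, the NF-Y box or an E2F element, for 10 replication genes, 21 mitotic genes and 27025 genes of the table. CHR letters were in 90.5% of mitotic and 40% of replication windows, while E2F letters were in 4.76% of mitotic and 40% of replication windows.

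The main comparison asked whether TAMs of Ptgs-deficient tumors carry fewer or more transcripts of the replication and division programme. The mean CPM was lower in the Ptgs-deficient group for 29 of the 41 genes, among them 20 of 26 mitotic and 8 of 11 replication genes, but no single gene passed the test. A call needed an FDR (adjusted p) no higher than 0.05 in edgeR's quasi-likelihood test and an absolute log2 fold change no smaller than 1.5. Of the 41 members 39 passed the filter on low counts and 0 were called, where 19 of 8793 genes tested (0.216%) were. At an unadjusted p under 0.05 stood 3 members (7.69%), against 8.83% of all genes. All 3 (Top2a, Cenpe and Smc4) were lower in the Ptgs-deficient group, where 3.82% of all genes were lower and 5.00% higher at that level. The 6 libraries did not overlap for 3 members lower in the Ptgs-deficient group (7.69%, beside 8.01% of all genes) and for 1 member higher (2.56%, beside 11% of all genes). DESeq2's Wald test and edgeR's likelihood ratio test, which called 328 and 241 genes in all, each called Top2a and Cenpe.

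The median log2 fold change was -0.82 over the 39 tested members, -0.51 over the 11 replication genes and -1.25 over the 24 tested mitotic genes, beside 0.02 over all genes tested and -0.08 over the 2905 tested genes with a similar mean level. The fitted change was below 0 for 28 of 39 members (71.8%), beside 49.3% of all genes. Without Ptgs-competent replicate 3 the median came to -0.09 for the members and -0.06 for the mitotic genes, beside 0.13 for all genes. For the replication genes it was -0.22 without that library and -0.06 without Ptgs-deficient replicate 1. The medians of the members and of the mitotic genes thus rest on Ptgs-competent replicate 3.

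**Figure D2:**
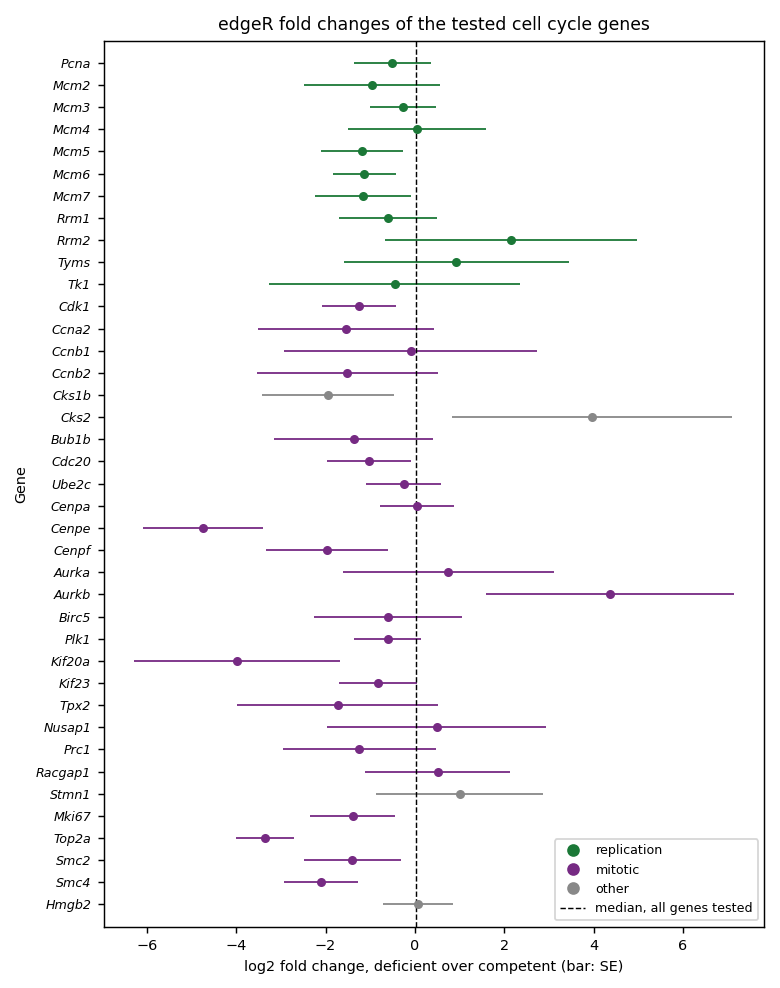
Log2 fold change, Ptgs-deficient over Ptgs-competent, of the 39 tested members (points, edgeR; bars, standard error), with replication genes in green, mitotic genes in purple and others in grey. The dashed line is the median of all genes tested, and 28 of 39 points have a fitted change below 0.

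Summed over the 26 mitotic genes, Ptgs-competent replicates 1, 2 and 3 held 877, 1185 and 3069 CPM, and Ptgs-deficient replicates 1, 2 and 3 held 676, 639 and 606 CPM. The groups did not overlap, and the Ptgs-competent mean (1710 ± 1187 CPM, SD, n = 3) was 2.67-fold that of the Ptgs-deficient group (640.3 ± 35.3 CPM, SD, n = 3). Without Ptgs-competent replicate 3 the ratio of the means came to 1.61. For the 11 replication genes the sums were 381, 343 and 651 CPM on the Ptgs-competent side and 239, 307 and 367 CPM on the Ptgs-deficient side. Here the groups overlapped, with means of 458 ± 168 and 304.5 ± 64.1 CPM (SD, n = 3 each) and a ratio of 1.51, or 1.19 without Ptgs-competent replicate 3. The ratio of the mitotic to the replication sum was 2.30, 3.46 and 4.72 in the Ptgs-competent and 2.83, 2.08 and 1.65 in the Ptgs-deficient libraries, so that the groups overlapped. In bulk RNA, fewer dividing cells and less RNA per dividing cell cannot be told apart.

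Ptgs-competent replicate 3 stood apart from the other libraries. It gave the highest CPM of 22 of the 41 members, 16 of them mitotic and 5 replication genes, and in all 31 members peaked in a Ptgs-competent library. The members took 0.433% of the counts of that library, 0.140% and 0.159% in Ptgs-competent replicates 1 and 2, and 0.103% to 0.1095% in the Ptgs-deficient libraries.

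Markers of other cells moved with these sums. A list of 19 mesenchymal or tumor markers, led by Cald1 and Sparc, summed to 635, 1308 and 2351 CPM in Ptgs-competent replicates 1, 2 and 3 and to 218, 105 and 143 CPM in Ptgs-deficient replicates 1, 2 and 3. The library with the most mitotic transcripts thus also had the highest sum of these markers and the lowest sum of the macrophage markers. Of the 19 markers 13 were tested, all 13 with a fitted change below 0 and 0 called. Lower without overlap were 8 of the 13 (8.01% of all genes), and 6 were lower at an unadjusted p under 0.05 (3.82% of all genes), and Tagln, Timp3 and Lum were at 0 in every library. Of 10 melanocyte lineage markers, 8 (Pmel, Mlana, Tyr, Tyrp1, Dct, Sox10, Gpr143 and S100b) were at 0 in every library. The part of mesenchymal or tumor cell RNA in the cell cycle values was not tested. Monocyte markers, led by Plac8 and Ccr2, ran the other way, at 227 to 500.1 CPM in the Ptgs-competent and 1452 to 2353 CPM in the Ptgs-deficient libraries. Plac8 was called higher (log2 fold change 3.198 ± 0.423, SE; edgeR adjusted p = 0.0230) and was the only call in the gene lists.

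Other lists were lower in sum. Erythroid markers (Hbb-bs and Hba-a1 leading) summed to 192 to 630.2 CPM in the Ptgs-competent and 0 to 104 CPM in the Ptgs-deficient libraries, endothelial markers (Pecam1, Egfl7) to 103 to 197 and 22.3 to 65.1 CPM, and neutrophil markers (S100a8, S100a9) to 620 to 725 and 452 to 532 CPM. Of the 6 neutrophil genes tested 4 were fitted below 0 and 2 above it. Without overlap S100a8 and S100a9 were lower and Retnlg, named after its values were seen, was higher, beside 8.01% and 11% of all genes. The markers of T cells (Cd2, Cd3d), B cells (Cd79b), NK cells (Gzma, Nkg7), dendritic cells (Siglech, Clec9a) and keratinocytes (Krt10, Krt1) reached no more than 38.9, 26.8, 21.9, 25.04 and 14.7 CPM in any library, and their ranges overlapped between groups.

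**Figure D3:**
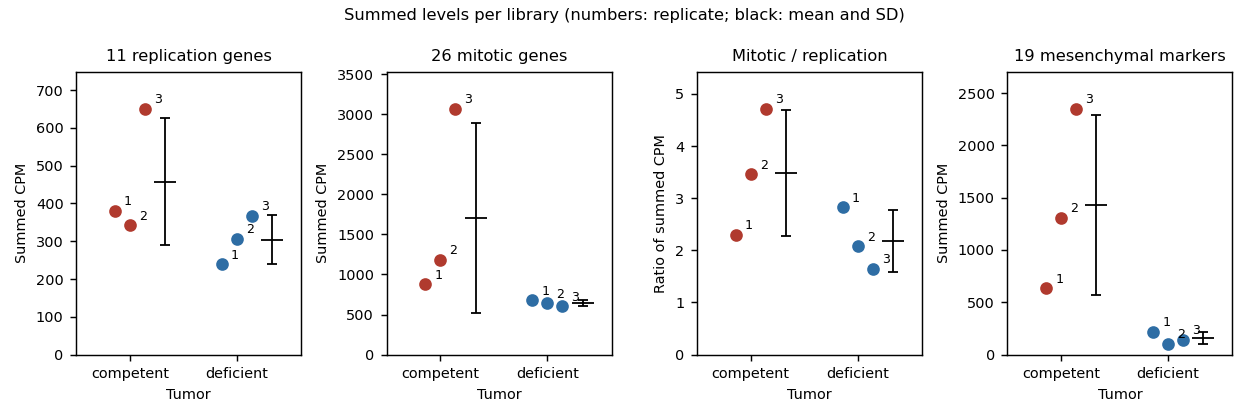
Summed TMM-scaled CPM (vertical axes from 0) of the 11 replication and 26 mitotic genes, their ratio, and the sum of 19 mesenchymal or tumor markers, with 1 point per library labelled by replicate number and the mean and SD in black. The mitotic sums of the groups did not overlap (877 to 3069 against 606 to 676 CPM), the replication sums did, and Ptgs-competent replicate 3 was highest in all 4 plots.

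The MCM2-7 helicase unwinds DNA at the fork. Together the 6 genes reached 278, 239 and 515 CPM in Ptgs-competent replicates 1 to 3 and 213, 213 and 194 CPM in Ptgs-deficient replicates 1 to 3. The groups did not overlap, at a ratio of the means of 1.67, or 1.25 without Ptgs-competent replicate 3. Over Pcna and the 6 MCM genes the median log2 fold change was -0.96, with 6 of 7 fitted below 0.

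Mcm6 (ENSMUSG00000026355; chromosome 1, 128331590 to 128359664, GRCm38), whose E2F-bearing window is printed above, was the only helicase gene whose groups did not overlap. It had 379, 502 and 341 counts in Ptgs-competent replicates 1 to 3 and 147, 262 and 196 in the Ptgs-deficient libraries, which made 72.1 ± 11.1 and 32.9 ± 7.02 CPM (SD, n = 3 each). All 3 Ptgs-deficient libraries lay below all 3 Ptgs-competent ones. Its log2 fold change was -1.13 ± 0.709 (SE; edgeR adjusted p = 0.874).

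The other subunits were less even. Mcm5 had 511, 90 and 525 counts against 213, 302 and 83, with Ptgs-competent replicate 2 (14.8 CPM) below every Ptgs-deficient library in scaled CPM (17.2 to 38.9) and a log2 fold change of -1.19 ± 0.9101 (SE; edgeR adjusted p = 0.974). Mcm7 had 201, 226 and 404 against 241, 167 and 27, a log2 fold change of -1.17 ± 1.08 (SE; edgeR adjusted p = 0.9995). For both, 1 library overlapped the other group, and without Ptgs-competent replicate 3 the changes were -0.61 for Mcm5 and -0.52 for Mcm7. Mcm7 reached -1.98 without Ptgs-deficient replicate 1. Mcm3 read 405, 454 and 321 against 93, 532 and 446 counts, and Mcm2 85, 185 and 363 against 231, 172 and 1. Mcm4 read 161, 0 and 437 against 242, 353 and 182. These 3 overlapped widely. Subunits of 1 complex thus dropped to 0 or 1 count in single libraries (Mcm4 in Ptgs-competent replicate 2, Mcm2 in Ptgs-deficient replicate 3) where the others were counted, and across the tested genes 3.40% to 21.6% were at 0 in a given library.

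Pcna, the clamp that holds DNA polymerase on its template, had 180, 471 and 303 counts against 75, 392 and 290. The groups overlapped, and the log2 fold change was -0.51 ± 0.863 (SE; edgeR adjusted p = 0.9995), with -0.91 without Ptgs-deficient replicate 3 and -0.06 without Ptgs-deficient replicate 1. A processed copy of the gene, Pcna-ps2, held 34, 90 and 0 counts against 0, 176 and 25, so that reads may have been split between the copies.

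Nucleotide supply showed no common direction (median log2 fold change 0.24 over 4 genes). Rrm1, the large subunit of ribonucleotide reductase, had 261, 137 and 324 counts against 69, 81 and 319, and its log2 fold change was -0.60 ± 1.11 (SE; edgeR adjusted p = 0.9995). Only Ptgs-deficient replicate 3 overlapped the Ptgs-competent range, and the change was -1.999 without it and -0.09 without Ptgs-competent replicate 3. Rrm2, the small subunit whose level follows S phase, read 70, 1 and 0 against 0, 148 and 158 counts, a log2 fold change of 2.14 ± 2.83 (SE; edgeR adjusted p = 0.9995). Tyms, thymidylate synthase, read 63, 21 and 1 against 0, 133 and 50, a log2 fold change of 0.93 ± 2.53 (SE; edgeR adjusted p = 0.9995). Tk1, thymidine kinase, was counted in Ptgs-competent replicate 1 (77) and in Ptgs-deficient replicates 2 and 3 (35 and 23) and was at 0 elsewhere. Rrm2, Tyms and Tk1 were thus all at 0 in Ptgs-deficient replicate 1 and at 0 or 1 count in Ptgs-competent replicate 3, the library where mitotic transcripts were highest.

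Among the roles, chromosome structure had the highest summed level in each Ptgs-competent library (405, 496 and 1428 CPM in replicates 1, 2 and 3), and it lay at 143, 271 and 172 CPM in Ptgs-deficient replicates 1, 2 and 3. Top2a (ENSMUSG00000020914; chromosome 11, 98992943 to 99024189), which encodes the topoisomerase that untangles sister chromatids, had 1099, 2091 and 3116 counts in Ptgs-competent replicates 1, 2 and 3 and 193, 538 and 79 in the Ptgs-deficient libraries. Every Ptgs-deficient library lay below every Ptgs-competent one. The means were 397 ± 253 and 38.5 ± 24.0 CPM (SD, n = 3 each). In log2 terms the change was -3.36 ± 0.645 (SE; edgeR adjusted p = 0.0813). It missed the threshold in this test, and its adjusted p was 0.0892 to 0.325 when 1 library was left out, but 0.0157 with limma voom and 4.18e-05 with DESeq2's Wald test. Top2a alone made up 11.8%, 21.4% and 16.2% of the members' counts in Ptgs-competent replicates 1, 2 and 3 and 3.42%, 5.61% and 1.49% in Ptgs-deficient replicates 1, 2 and 3. The mitotic sum without Top2a still did not overlap between groups (702 to 2397 against 575 to 641 CPM), at a ratio of the means of 2.18, or 1.28 without Ptgs-competent replicate 3.

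The condensin ATPase Smc4 (ENSMUSG00000034349; chromosome 3, 69004738 to 69034623) had 713, 180 and 1847 counts against 139, 517 and 191. Ptgs-competent replicate 2 (29.5 CPM) lay among the Ptgs-deficient libraries (25.4 to 61.6 CPM), and replicate 3 (398 CPM) far above. Smc4 had a log2 fold change of -2.10 ± 0.830 (SE; edgeR adjusted p = 0.443), and of -0.72 without Ptgs-competent replicate 3. Its partner Smc2 had 44, 223 and 751 against 135, 160 and 163 counts. Mki67, which coats mitotic chromosomes and is the usual marker of cycling cells, had 138, 236 and 732 counts against 202, 113 and 159. Ptgs-competent replicates 1 and 2 (22.0 and 38.7 CPM) were within or near the Ptgs-deficient range of 13.5 to 36.9 CPM, and only replicate 3 (158 CPM) stood clear. The log2 fold change of Mki67 was -1.39 ± 0.949 (SE; edgeR adjusted p = 0.922) with all libraries and -0.08 without Ptgs-competent replicate 3. The chromatin protein gene Hmgb2 had 549, 293 and 178 counts against 112, 945 and 239, which overlapped.

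At the centromere, Cenpe (ENSMUSG00000045328; chromosome 3, 135212537 to 135273611), the kinesin that moves chromosomes to the spindle equator, had 331, 737 and 768 counts in Ptgs-competent replicates 1 to 3 and 0, 62 and 25 in Ptgs-deficient replicates 1 to 3. The groups were far apart, at 113 ± 56.8 and 4.19 ± 3.79 CPM (SD, n = 3 each). The log2 fold change was -4.74 ± 1.35 (SE; edgeR adjusted p = 0.246), and it ranged from -5.44 to -4.12 when 1 library was left out. Cenpf, a kinetochore protein of G2 phase and mitosis, had 32, 573 and 1019 counts against 383, 82 and 9. Its groups overlapped, with a log2 fold change of -1.97 ± 1.37 (SE; edgeR adjusted p = 0.934) that came to -0.79 without Ptgs-competent replicate 3 and to -4.12 without Ptgs-deficient replicate 1. Cenpa, the histone variant that marks centromeres and is present outside mitosis too, differed little, with 301, 184 and 220 counts against 310, 299 and 181 (41.9 ± 10.1 and 43.2 ± 11.6 CPM, SD, n = 3 each).

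The mitotic kinases were mixed. Aurkb (ENSMUSG00000020897; chromosome 11, 69045647 to 69051664), the kinase of the chromosomal passenger complex, was the only member higher without overlap. It was counted 0, 0 and 6 times in the Ptgs-competent and 56, 121 and 14 times in the Ptgs-deficient libraries, which made at most 14.4 CPM. Its log2 fold change was 4.37 ± 2.79 (SE; edgeR adjusted p = 0.888). Birc5 (survivin), of the same complex, did not follow it, with 376, 0 and 680 counts against 11, 550 and 334. Aurka, the spindle pole kinase, read 98, 0 and 17 against 82, 55 and 53. Plk1, which acts from mitotic entry to exit, was counted in every library at 263, 335 and 432 against 150, 471 and 197. Both overlapped.

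**Figure D4:**
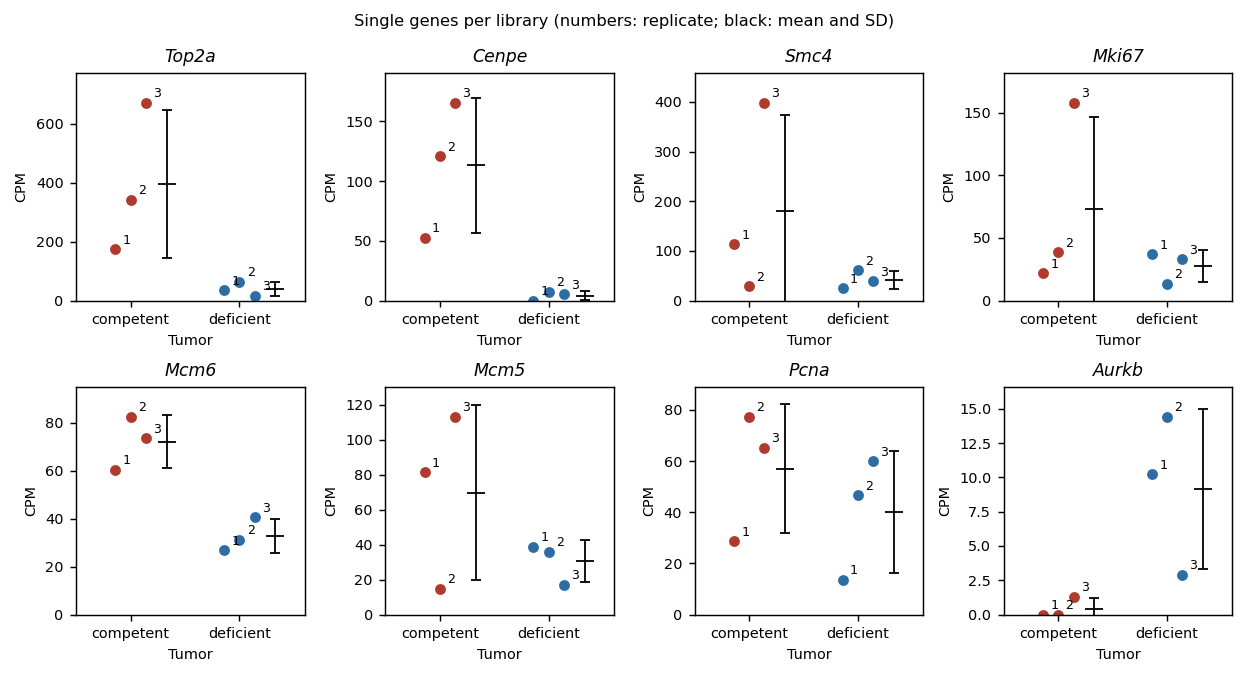
TMM-scaled CPM (vertical axes from 0, scales differ) of 8 members in each library, labelled by replicate number, with the mean and SD in black; SD bars that would pass below 0 are cut at the axis. Top2a, Cenpe and Mcm6 were lower in all 3 Ptgs-deficient libraries, Aurkb was higher in all 3, and Smc4 and Mki67 stood out in Ptgs-competent replicate 3 (398 and 158 CPM).

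Cdk1, the kinase that starts mitosis, had 632, 108 and 550 counts against 181, 309 and 145. Its means were 79.0 ± 53.8 and 33.3 ± 3.40 CPM (SD, n = 3 each), with Ptgs-competent replicate 2 below the Ptgs-deficient range and the other two above it. The log2 fold change was -1.25 ± 0.824 (SE; edgeR adjusted p = 0.909). Its cyclins were patchy. Ccna2 read 87, 44 and 325 against 0, 92 and 98 counts, Ccnb1 0, 0 and 198 against 184, 53 and 0, and Ccnb2 1, 156 and 475 against 0, 195 and 104. All 3 had their highest value in Ptgs-competent replicate 3 and overlapped between groups.

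The small Cdk-binding subunits diverged. Cks1b had 766, 0 and 1744 counts against 334, 217 and 202, a log2 fold change of -1.95 ± 1.47 (SE; edgeR adjusted p = 0.973) that came to -0.48 without Ptgs-competent replicate 3 and to 1.23 under limma voom with quality weights. Cks2 had 0, 0 and 12 against 0, 250 and 54, a log2 fold change of 3.97 ± 3.14 (SE; edgeR adjusted p = 0.9897). A count of 0 stood in both groups of Cks2, and in Ptgs-competent replicate 2 of both genes.

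Of the checkpoint and anaphase-promoting complex genes, Bub1b, the BubR1 checkpoint protein, had 167, 308 and 119 counts against 0, 229 and 60 and a log2 fold change of -1.37 ± 1.78 (SE; edgeR adjusted p = 0.9995). Cdc20, which activates the complex, had 92, 270 and 637 against 192, 301 and 121 and a log2 fold change of -1.03 ± 0.934 (SE; edgeR adjusted p = 0.9995), or 0.18 without Ptgs-competent replicate 3. Ube2c, the ubiquitin-conjugating enzyme of the complex, had 153, 171 and 829 against 498, 471 and 227. Ptgs-competent replicates 1 and 2 lay below all Ptgs-deficient libraries and replicate 3 above them. The log2 fold change of Ube2c was -0.25 ± 0.839 (SE; edgeR adjusted p = 0.9995) and turned to 1.35 without Ptgs-competent replicate 3. Bub1, a checkpoint kinase, read 0, 139 and 0 against 0, 1 and 25 and was not tested.

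Among spindle and cytokinesis genes, Kif20a, a kinesin of the central spindle, had 0, 179 and 608 counts against 0, 27 and 33. It was at 0 in 1 library of each group, and its log2 fold change was -3.99 ± 2.31 (SE; edgeR adjusted p = 0.8196), or -2.06 without Ptgs-competent replicate 3 and -0.34 with limma voom. Kif23, the motor of centralspindlin, had 185, 370 and 536 against 378, 111 and 166 and a log2 fold change of -0.82 ± 0.872 (SE; edgeR adjusted p = 0.9995), which was -0.16 without Ptgs-competent replicate 3 and -1.51 without Ptgs-deficient replicate 1. Tpx2, which activates Aurora A on the spindle, had 137, 299 and 0 against 93, 16 and 12 and a log2 fold change of -1.73 ± 2.25 (SE; edgeR adjusted p = 0.9995), which was -0.62 without Ptgs-competent replicate 2 and -3.38 without Ptgs-deficient replicate 1. Racgap1, the partner of Kif23 in centralspindlin, read 379, 116 and 0 against 97, 411 and 225 counts, and did not share its highest library. Prc1, which bundles the microtubules of the midzone, read 271, 497 and 151 against 18, 0 and 305. Nusap1, which stabilises spindle microtubules, read 1, 1 and 222 against 320, 75 and 0. Of this role, Tpx2, Racgap1, Stmn1 and Kif11 were at 0 in Ptgs-competent replicate 3, where most mitotic genes peaked. Stmn1, whose product destabilises microtubules, read 84, 162 and 0 against 183, 234 and 91. Kif11, the motor that separates spindle poles, had 3, 0 and 0 counts against 83, 110 and 0 and was not tested. Its Ptgs-deficient mean was at least 17.5-fold higher than a floor of 3 counts per Ptgs-competent library, although Ptgs-deficient replicate 3 was at 0.

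A count of 0 in some library was found for 51.3% of the tested members and 44.4% of all genes tested. Of the 41 members 19 were counted in all 6 libraries, 14 were at 0 in 1 library, 3 in 2 libraries and 5 in 3. Single libraries held 0 counts for 5, 9 and 7 members in the Ptgs-competent and for 10, 1 and 3 in the Ptgs-deficient group. Ptgs-deficient replicate 2, the most deeply sequenced library, had the fewest. The within-group coefficient of variation had a median of 75.2% for the tested members and 69.6% for all genes tested.

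**Figure D5:**
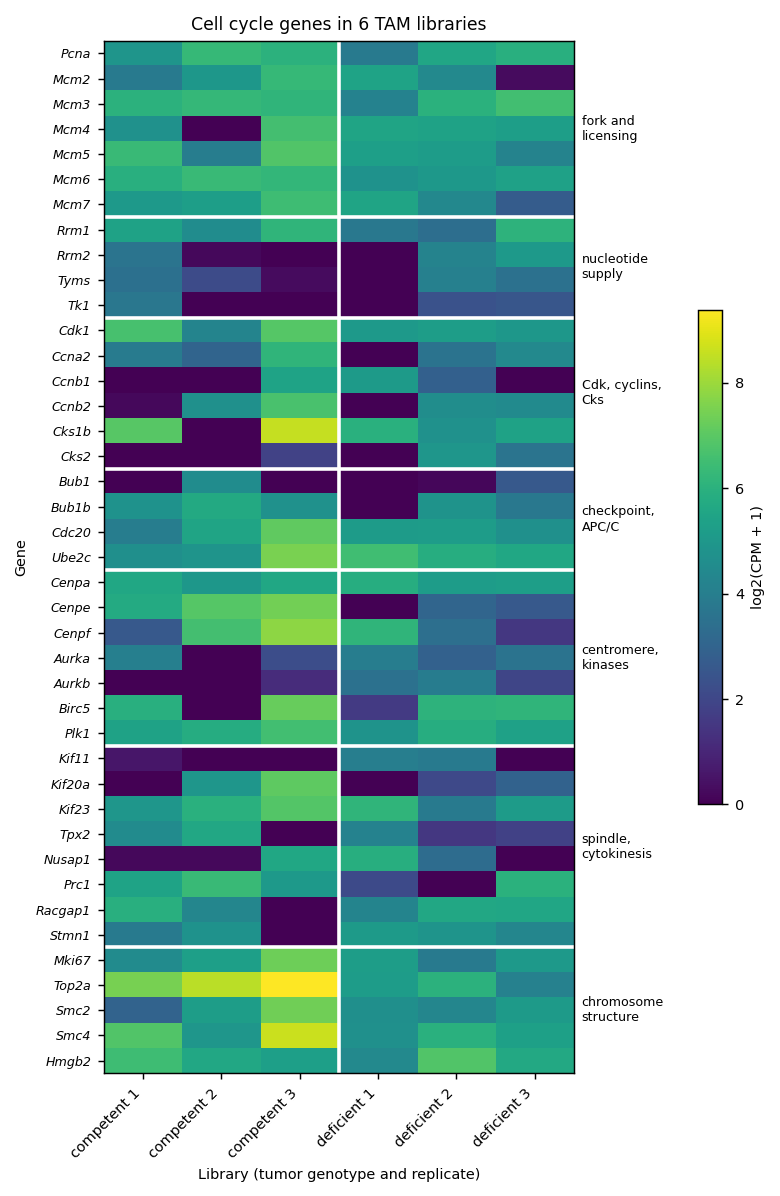
Levels of the 41 members as log2(CPM + 1) in 3 Ptgs-competent (left) and 3 Ptgs-deficient (right) libraries, ordered by role, with dark cells at or near 0 counts. The brightest cells are those of Top2a (672 CPM), Smc4 (398 CPM) and Cks1b (376 CPM) in Ptgs-competent replicate 3, and dark cells occur in every column.

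Further genes of the same programme were read from lists of the pathway, none of which held a called gene. Origin firing and DNA synthesis genes had a median log2 fold change of -0.91, with 23 of 32 tested genes fitted below 0 and 1 of them at an unadjusted p under 0.05, where 3.82% of all genes were lower. The smallest p values belonged to the DNA ligase Lig1 (-1.46 ± 0.591, SE), the clamp loader subunit Rfc2 (-1.79 ± 1.22, SE) and the dUTPase Dut (-1.70 ± 1.31, SE). Further mitotic genes had a median of -1.25, with 25 of 30 fitted below 0. Lower without overlap were 8 of the 30, where 8.01% of all genes were, and 2 were lower at an unadjusted p under 0.05, where 3.82% of all genes were. The cohesin subunits Smc1a (-1.43 ± 0.508, SE) and Smc3 (-1.69 ± 0.782, SE) and the passenger protein Incenp (-1.45 ± 0.557, SE) led it, all with edgeR adjusted p = 0.376 or more. These lists thus had medians below 0, like the members.

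Of G1 cyclins, Cdc25 phosphatases and their kinases 6 of 10 tested were fitted below 0 (median -0.42). Ccnd1, cyclin D1, had 2836, 2511 and 7490 counts against 1561, 1757 and 716, lower in every Ptgs-deficient library, with a log2 fold change of -1.95 ± 0.549 (SE; edgeR adjusted p = 0.242). The ratio of its mean CPM was 3.86, or 2.02 without Ptgs-competent replicate 3. The phosphatase genes Cdc25a (-1.67 ± 0.897, SE) and Cdc25b (-1.26 ± 1.01, SE) followed. Among cell cycle inhibitors and quiescence genes 9 of 15 tested were fitted above 0 (median 0.59), 2 of them higher without overlap, where 11% of all genes were, and at an unadjusted p under 0.05, where 5.00% were. The antiproliferative gene Btg2 had 1639, 819 and 1129 counts against 3821, 3950 and 3303, a log2 fold change of 1.53 ± 0.368 (SE; edgeR adjusted p = 0.158). Gadd45b, a stress-induced growth arrest gene, had 584, 681 and 455 against 2258, 1928 and 1037, a log2 fold change of 1.499 ± 0.401 (SE; edgeR adjusted p = 0.208). For both, all Ptgs-deficient libraries lay above all Ptgs-competent ones. Cdkn1a (p21) had a log2 fold change of 0.58 ± 0.356 (SE; edgeR adjusted p = 0.861).

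The list of E2F and DREAM regulators held 17 genes, Myc among them, of which 8 were tested. Tfdp1, Mybl2 and Lin52 were at 0 in every library. The 8 tested genes showed no common direction, with 4 on either side of 0 and a median of 0.03. Of these, E2f8 (-3.68 ± 2.79, SE), Foxm1 (-3.61 ± 2.81, SE) and E2f2 (2.37 ± 2.33, SE) had the smallest p. Chromatin and tubulin genes of dividing cells had 10 of 15 fitted below 0 (median -0.12). At an unadjusted p under 0.05, 3 were lower and 1 higher, beside 3.82% and 5.00% of all genes, and without overlap 3 were lower and 2 higher, beside 8.01% and 11%. Lmnb1, lamin B1, had 2460, 2672 and 2045 counts against 1456, 1392 and 662, lower in every Ptgs-deficient library (log2 fold change -1.16 ± 0.356, SE; edgeR adjusted p = 0.292). Tubb4b (-1.05 ± 0.403, SE) and the histone gene Hist1h2bc (2.28 ± 0.584, SE) were the other two with the smallest p, and neither was called.

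Some members lie across genes of the opposite strand that were counted too: Mcm7 across Cops6, Ccna2 across Exosc9, Cdc20 across Elovl1, Nusap1 across Oip5, Kif20a across Cdc23 and Tk1 across Afmid. The strand setting of the counting was not stated, so reads of these pairs may not be separated.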

How the data were processed

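The authors prepared Lexogen QuantSeq 3′ libraries from 800 pg of total RNA per TAM sample, trimmed the reads with BBDUK, fqtrim and cutadapt, aligned them to GRCm38 with STAR and counted them per Ensembl 86 gene with featureCounts. Neither the versions of these tools nor the treatment of multiply aligned reads was stated. The deposited table holds raw counts, 1 column per library, with 39179 named genes and no unnamed row. A 3′ read count does not scale with transcript length, and PCR copies were not separated by molecular identifiers, so floors cover counting error only.

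The analysis used edgeR 4.0.16 in R 4.3.3. filterByExpr at its defaults (minimum count 10, minimum total 15) left 8793 genes. Libraries were TMM-scaled and compared with glmQLFit and glmQLFTest, 2-sided, with Benjamini-Hochberg adjustment over all genes tested. The study names edgeR with TMM, a generalized linear model test and the call thresholds, but not whether that test was the likelihood ratio or the quasi-likelihood form. Each standard error is the size of the log2 fold change over the root of its F statistic. The steps were tested on simulated counts. Levels are TMM-scaled CPM. Nothing states whether hosts were shared between pools, so p-values measure the spread between 3 pools per group. Totals of 4431184 to 8760679 counts and a common biological coefficient of variation of 1.26 limit the precision. Normalization, filter, test (DESeq2 1.42.0, limma 3.58.1), replicate block and each library were varied.

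Groups and replicate numbers came from the labels. The 41 members and the 18 gene lists were chosen with earlier results of these data known. Of 258 listed genes 255 matched by symbol, 2 by a current symbol, and Sgol2a was not matched. All members are named. A log2 fold change with its test is given for Mki67, Top2a, Pcna and the 3 members per role with the smallest p, of each pathway list the 3 genes with the smallest p are named, and of each cell list the 2 with the highest mean CPM, apart from items that are not reported here. Positions are from GENCODE M21. Promoter windows and motifs were counted per gene, with a gene counted once if any of its windows matched.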

Additional observations from a re-analysis of the deposited data

How the results depend on the processing

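The count of called members was 0 and stayed at 0 in all 6 fits that left out a library and under DESeq2 size factors or no TMM factors. It was 2 (Top2a and Cenpe) without the filter on low counts, with DESeq2's Wald test and with edgeR's likelihood ratio test, and 1 (Top2a) with limma voom. The numbers of the replicates did not pair the libraries (correlations of same-numbered deviations -0.05, -0.02 and -0.02). With the replicate block 1 member (Top2a) was called, and 77 genes in all against 19. Total calls were 252 without the filter, 328 with DESeq2, 241 with the likelihood ratio test, 123 with limma voom and 0 to 25 with 1 library left out, the cause of which was not tested.

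Members at an unadjusted p under 0.05 numbered 6 of 41 without the filter, beside 1108 of 13368 genes. With 1 library left out they numbered 2 to 6 of 40 or 41, beside 635 to 1231 of 9444 to 9902 genes. In those fits, members lower without overlap numbered 4 to 10 and members higher without overlap 1 to 4, as fewer libraries are compared. Of all genes tested in the same fits (9444 to 9902), 980 to 1358 were lower and 1320 to 1877 higher without overlap. With limma voom the median log2 fold change was -0.13 for the members and -0.30 for mitotic genes, where the median of all genes moved to 0.39. With the block that median was 0.26. With 1 library left out, the median ranged from -1.03 to -0.086 for the members and from -1.43 to -0.056 for mitotic genes, the log2 ratio of summed CPM from -1.39 to -0.45 for all members and from -1.73 to -0.63 for mitotic genes, with the weakest values in each case without Ptgs-competent replicate 3.

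Of 22 members given with a test, 3 changed sign: Cks1b (1.23 with limma voom), Ube2c (0.52 with limma voom, 0.41 with the replicate block, -0.67 to 1.35 with 1 library left out) and Cdc20 (-1.499 to 0.18 with 1 library left out). With 1 library left out, Rrm2 ranged from 1.22 to 7.30, Tyms from 0.17 to 2.24, Cks2 from 2.68 to 9.43, Aurkb from 3.80 to 8.86, Bub1b from -2.46 to -0.74 and Cdk1 from -1.72 to -0.80. Top2a and Cenpe kept their sign in all 13 settings. A count of 0 stood in at least 1 library for 22 of 41 members. Zeros did not follow depth alone: Ptgs-deficient replicate 3 (5113646 counts) had 3 members at 0 and Ptgs-competent replicate 2 (6128346 counts) had 9, and the cause was not tested.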
